A study of Oryza sativa with 8 samples.

Results

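The comparison described here is that of Ghd7 overexpression in very young rice panicles, 0.1 cm long. Panicles of the transgenic line labelled OX-Ghd7HJ19, which over-expresses Ghd7 in Hejiang19, were set against panicles of the wild type Hejiang19 (HJ19), with 2 Affymetrix rice arrays for each genotype. Plants were grown in the field and sampled 3 hours after dawn. The series also holds 4 arrays of young leaves taken at 35 days, 2 for each genotype, and these 8 arrays together gave the estimate of spread for each probe set. The panicle comparison thus rests on 4 of the 8 arrays, and on 57194 of the 57381 probe sets in the table, control and reporter probe sets being left out. The promoter that drives Ghd7, the number of transgenic lines and the number of plants pooled for each array are not given in the sources used here. The description shared by all 8 arrays names flag leaves at heading, and the titles, source names and tissue labels, which name young leaves and panicles, were followed instead. The labels call the replicates biological, and p-values measure the spread between arrays.

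Ghd7 encodes a nuclear protein with a CCT domain that delays flowering of rice in long days, by holding down Ehd1 and, through it, the florigen gene Hd3a. It is also known for raising plant height and the number of grains on a panicle. At the stage of a very young panicle the inflorescence meristem has produced branch meristems, and spikelet meristems begin to lay down floral organs. MADS-box transcription factors of the B, C, D and E classes then give lodicules, stamens, carpels and ovules their identity, while members of the APETALA1 group act earlier, when a shoot meristem becomes an inflorescence.

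Values are log2 expression values, so that a difference of 1 is a 2-fold change, and all differences are overexpressor minus wild type with the standard error of the fit. The threshold was an adjusted p of 0.05 over all probe sets, and the verbs rose and fell are kept for probe sets that met it. The arrays carried the markers of a young inflorescence. OSH1, the KNOX gene that marks shoot meristems, stood at 13.38 and 13.44 in the overexpressor arrays, against 13.25 and 13.15 in the wild-type arrays. LAX1, RFL and OsSPL14 were likewise above 12 on all 4 arrays, and DL and the B-class and E-class floral genes were well above the array median of 6.13 to 6.15. The C-class genes OsMADS3 (6.29 and 6.16) and OsMADS58 (6.21 and 7.0) were nearer to that median in the overexpressor arrays. Under the array median were 4 of 8 anther and tapetum genes, 4 of 6 seed genes and 2 of 3 root genes. Among green tissue genes 1 of 7 was under it, and among germ cell genes none of 4. A median divides all probe sets evenly, so these counts do not show that a tissue was absent. The 2 overexpressor arrays correlated with r = 0.9958 and the 2 wild-type arrays with r = 0.9978 across probe sets. However, 144 probe sets lay at least 2-fold apart between the overexpressor arrays, against 6 between the wild-type arrays. Across genotypes, r lay between 0.9912 and 0.9932. No probe set was paired with the name Ghd7 or Ehd1 here, so neither gene could be picked out. Either may be among the tested probe sets without a gene name, of which 34663 had no gene. The overexpressed gene itself thus gave no check of the labels.

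In overexpressor panicles 600 probe sets were higher and 1052 lower than in wild-type panicles, which is 1.05% and 1.84% of those tested and 2.89% together. These counts depend on the fit: on the 4 panicle arrays alone there were 248 higher and 444 lower. Removing 1 array leaves 1 array in its group and takes the spread of that pair out of the estimate. The counts fell most without either wild-type panicle array. Calls lost below on removal of 1 array may thus reflect lost replication, and do not show that this array drove the call. Of the 600 higher probe sets, with all arrays in the fit, 204 rose at least 2-fold and 26 at least 4-fold. Of the 1052 lower ones, 461 fell at least 2-fold and 56 at least 4-fold. Among 17905 genes with 1 probe set each, 297 (1.66%) were higher and 366 (2.04%) lower, 3.7% together. Among the 2447 of these with a name, 50 (2.04%) were higher and 77 (3.15%) lower. The last 2 shares are the background against which counts of named genes are read below. The lists and families were chosen with earlier results of these data known, so their counts describe these data and are not tests. No gene was paired with 244 of the higher and 617 of the lower probe sets. The lower group mean was under the array median for 179 of the higher and 451 of the lower probe sets, and at such dim levels a fold change may be too small.

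The largest rise of all had no gene name. It was that of LOC4331398, for which the tables used here give no product. Its brighter probe set stood at 14.33 and 14.31 in the overexpressor arrays, against 5.20 and 5.34 in the wild-type arrays. A second probe set of the same gene stood at 13.85 and 13.98 in the overexpressor arrays, against 4.50 and 4.26 in the wild-type arrays. The differences were 9.05 ± 0.15 and 9.54 ± 0.13 (adjusted p = 1.28e-08 and 3.6e-09). Since the wild-type levels were below the array median and the overexpressor levels near the top of the scale, these differences may be too small. In overexpressor leaves the same probe sets were higher by 7.66 ± 0.15 and 7.79 ± 0.13. In all, 6 probe sets rose at least 4-fold in both tissues. One of the others, named after its values were seen, was that of LOC4340325, at 12.42 and 12.34 in the overexpressor arrays, against 6.90 and 6.57 in the wild-type arrays. It rose by 5.64 ± 0.17 in panicles and by 5.41 ± 0.17 in leaves. The largest falls among probe sets without a gene name were those of 2 probe sets paired with no gene, one at 6.39 and 6.57 in the overexpressor arrays, against 9.68 and 9.52 in the wild-type arrays, and the other at 8.33 and 7.84 in the overexpressor arrays, against 11.05 and 11.27 in the wild-type arrays.

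Most floral organ identity genes fell in overexpressor panicles. Of 14 measured genes of this list, 9 fell and none rose, against 3.15% of named genes lower. All 14 differences were negative, and their median was -1.22, against a median of 0.016 over all probe sets. OsMADS34, a SEPALLATA-like gene, was placed in the APETALA1 list instead and differed by 0.07 ± 0.21. The falls were not of one size within a class. Since whole panicles were measured, fewer cells of a type and less RNA per cell cannot be told apart. Panicles of both genotypes carry the same length label, and no age is given for them. Whether the genotypes were at the same developmental stage was not tested, for these genes or for the meristem genes below. Effects of stage and of genotype therefore cannot be separated here.

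The C-class genes, which specify stamens and carpels and end the floral meristem, included the largest fall of any named gene. OsMADS58 stood at 6.21 and 7.0 in the overexpressor arrays, against 10.09 and 10.12 in the wild-type arrays. That was a fall of 11.3-fold (-3.50 ± 0.23, adjusted p = 0.000133), and the overexpressor arrays differed from each other more than the wild-type arrays did. The other C-class gene, OsMADS3, stood at 6.29 and 6.16 in the overexpressor arrays, against 7.96 and 7.66 in the wild-type arrays (-1.58 ± 0.22, 3-fold lower, adjusted p = 0.00641). Its overexpressor level was close to the array median. The D-class genes of the ovule were at or below the array median in both genotypes. OsMADS13 was at 5.40 and 5.17 in the overexpressor arrays, against 6.29 and 5.88 in the wild-type arrays and fell by 0.80 ± 0.16 (adjusted p = 0.0341), and OsMADS21 was at 3.70 and 3.83 in the overexpressor arrays, against 3.84 and 3.94 in the wild-type arrays, a difference of -0.13 ± 0.11 that did not pass.

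Among the E-class genes, partners of all the other classes, OsMADS7 and OsMADS8 fell most. OsMADS7 stood at 8.57 and 8.47 in the overexpressor arrays, against 11.75 and 11.72 in the wild-type arrays (-3.22 ± 0.17, 9.29-fold lower, adjusted p = 5.75e-05). OsMADS8 stood at 9.97 and 9.81 in the overexpressor arrays, against 11.93 and 11.81 in the wild-type arrays (-1.98 ± 0.12, 3.94-fold lower, adjusted p = 9.52e-05). In both genes each overexpressor array lay far below each wild-type array. OsMADS1, an E-class gene of the lemma and palea, was at 12.12 and 12.06 in the overexpressor arrays, against 13.02 and 13.08 in the wild-type arrays. Its difference of -0.96 ± 0.28 did not pass (adjusted p = 0.132) in the fit with leaves. It passed on the 4 panicle arrays alone (adjusted p = 0.0288). OsMADS5 was at 12.57 and 12.62 in the overexpressor arrays, against 12.78 and 12.70 in the wild-type arrays, a difference of -0.14 ± 0.13 that did not pass. The AGL6-like genes OsMADS6, at 12.41 and 12.05 in the overexpressor arrays, against 12.76 and 12.76 in the wild-type arrays, and OsMADS17, at 10.26 and 9.94 in the overexpressor arrays, against 10.83 and 10.93 in the wild-type arrays, did not pass either, although the groups of both were apart.

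B-class genes, which specify lodicules and stamens, all fell, but not alike. OsMADS16, the APETALA3-like gene, stood at 9.15 and 9.38 in the overexpressor arrays, against 11.24 and 11.27 in the wild-type arrays (-1.99 ± 0.20, 3.98-fold lower, adjusted p = 0.00136). Its PISTILLATA-like partner OsMADS4 stood at 8.30 and 8.94 in the overexpressor arrays, against 10.55 and 10.51 in the wild-type arrays (-1.91 ± 0.20, 3.76-fold lower, adjusted p = 0.00136). The second PISTILLATA-like gene, OsMADS2, stood at 12.14 and 12.13 in the overexpressor arrays, against 12.74 and 12.74 in the wild-type arrays, and fell only 1.52-fold (-0.61 ± 0.12, adjusted p = 0.0336). DL, the YABBY gene that specifies the carpel and the leaf midrib, stood at 9.14 and 8.79 in the overexpressor arrays, against 10.45 and 10.46 in the wild-type arrays (-1.49 ± 0.14, 2.8-fold lower, adjusted p = 0.000779). In RefSeq's gene order DL and OsMADS1 are next to each other.

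The calls of OsMADS58, OsMADS7, OsMADS8, OsMADS16, OsMADS4 and DL held under all 17 alternatives tried. The 17 are not all distinct, since removing either leaf array of a genotype gave the same panicle counts. Among the other falls, the call was lost by OsMADS3 without panicle overexpressor replicate 2 or panicle wild-type replicate 1 (adjusted p 0.0627 to 0.0746), by OsMADS2 without any 1 of the 4 panicle arrays, or either overexpressor leaf array (adjusted p 0.0514 to 0.229) and by OsMADS13 without any 1 of the 4 panicle arrays, or any 1 of the 4 leaf arrays (adjusted p 0.0562 to 0.244). OsMADS2 and OsMADS13 also did not pass on the 4 panicle arrays alone (adjusted p = 0.0559 and 0.127). Across the removals of 1 array, 6 to 8 of the 14 genes were lower.

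**Figure D1:**
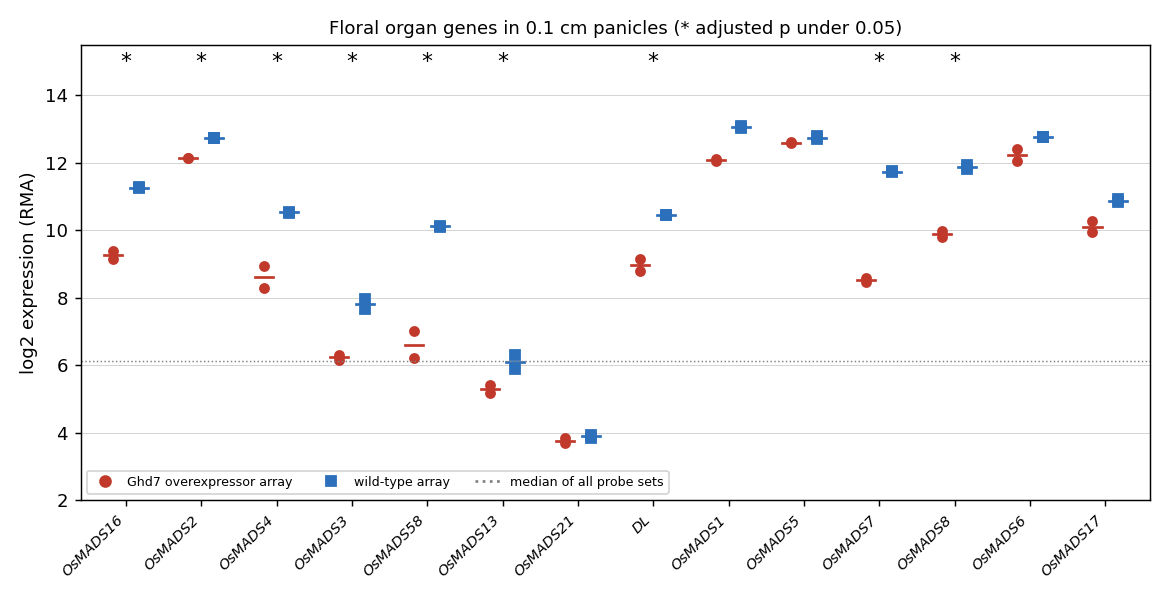
Log2 expression of the 14 measured floral organ genes in 0.1 cm panicles, with 1 point for each array, a bar for the mean of 2 arrays, and overexpressor (circles) left of wild type (squares) for each gene. The overexpressor arrays lie below the wild-type arrays for all 9 starred genes, most for OsMADS58 (-3.50) and OsMADS7 (-3.22), while OsMADS5 (-0.14) and OsMADS21 (-0.13) lie close together.

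Most YABBY genes, which act in lateral organs, fell. Of 7 measured members 6 fell and none rose, against 3.15% of named genes lower, with a median of -1.21. DL and TOB1 among them are also counted in other lists. OsYABBY1 stood at 10.92 and 11.23 in the overexpressor arrays, against 13.01 and 12.87 in the wild-type arrays (-1.87 ± 0.20, 3.65-fold lower, adjusted p = 0.00181). A second, dimmer probe set of OsYABBY1 gave -2.0. OsYABBY4 stood at 11.49 and 11.05 in the overexpressor arrays, against 12.62 and 12.64 in the wild-type arrays (-1.36 ± 0.16, adjusted p = 0.00261), and OsYABBY2 at 10.17 and 10.10 in the overexpressor arrays, against 11.40 and 11.29 in the wild-type arrays (-1.21 ± 0.19, adjusted p = 0.011). OsYABBY6 was at 10.09 and 10.14 in the overexpressor arrays, against 10.91 and 10.88 in the wild-type arrays, and fell by 0.78 ± 0.14. DL is given above and TOB1 below. The remaining member, OsYABBY7, lay under the array median at 5.72 and 5.74 in the overexpressor arrays, against 5.38 and 5.49 in the wild-type arrays and did not pass. In every falling member both overexpressor arrays were below both wild-type arrays.

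A minority of other organ and boundary regulators found by name fell, and most members of their families did not pass. ALOG-domain genes shape spikelet organs such as the lemma. Of 4 measured, 2 fell and 2 did not pass. G1L1 stood at 9.88 and 9.61 in the overexpressor arrays, against 11.22 and 11.16 in the wild-type arrays (-1.44 ± 0.13, 2.72-fold lower, adjusted p = 0.000622). OsG1L6, known as TH1 and needed for the shape of lemma and palea, stood at 7.19 and 7.23 in the overexpressor arrays, against 8.24 and 8.25 in the wild-type arrays (-1.04 ± 0.13, adjusted p = 0.00303).

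Among 7 TCP-domain genes of the PCF type, growth regulators named after members that bind a PCNA promoter, all differences were negative and 2 passed. PCF5 stood at 8.02 and 7.79 in the overexpressor arrays, against 9.50 and 9.42 in the wild-type arrays (-1.56 ± 0.15, 2.95-fold lower, adjusted p = 0.00103). PCF3 stood at 9.0 and 8.46 in the overexpressor arrays, against 9.88 and 9.84 in the wild-type arrays (-1.13 ± 0.17, adjusted p = 0.00847). Of 6 NPR1 homologues, relatives of a salicylic acid receptor and of the BLADE-ON-PETIOLE genes of Arabidopsis, 2 fell. NH5 stood at 11.20 and 10.85 in the overexpressor arrays, against 12.25 and 12.14 in the wild-type arrays (-1.17 ± 0.14, adjusted p = 0.00255) and OsNPR5 at 7.07 and 6.44 in the overexpressor arrays, against 8.09 and 8.04 in the wild-type arrays (-1.31 ± 0.20, adjusted p = 0.00936). A second, dim probe set of NH5 gave -0.02.

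AS2, the only LOB-domain gene found by name, stood at 10.20 and 9.99 in the overexpressor arrays, against 11.16 and 11.24 in the wild-type arrays (-1.11 ± 0.20, adjusted p = 0.0204). OsWOX6 was the only one of 7 WOX homeobox genes to pass, in a family with a median difference of 0.04, at 6.36 and 6.58 in the overexpressor arrays, against 7.36 and 7.24 in the wild-type arrays (-0.83 ± 0.14, adjusted p = 0.0144). A dim second probe set of it gave -0.14. OsHox8 was the only one of 34 other homeobox and KNOX genes to pass, a share no higher than the 3.15% of named genes lower, at 5.93 and 6.07 in the overexpressor arrays, against 7.54 and 7.52 in the wild-type arrays (-1.53 ± 0.16, 2.89-fold lower, adjusted p = 0.00161), with an overexpressor level under the array median. These families hold only the genes found by name.

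The calls of OsYABBY1, G1L1, OsG1L6, PCF5 and OsHox8 held under all 17 alternatives. Removing 1 array ended the calls of OsYABBY2 without any 1 of the 4 panicle arrays (adjusted p 0.0518 to 0.104), PCF3 without either wild-type panicle array (adjusted p 0.0827 to 0.0831), OsNPR5 without either wild-type panicle array (adjusted p 0.0859 to 0.0868), AS2 without any 1 of the 4 panicle arrays (adjusted p 0.058 to 0.172) and OsWOX6 without panicle overexpressor replicate 1 or either wild-type panicle array (adjusted p 0.0743 to 0.138). Fitted to the 4 panicle arrays alone, OsYABBY4 and NH5 (adjusted p = 0.0513 for both), PCF3 (0.0896), OsNPR5 (0.0873) and OsWOX6 (0.0629) did not pass.

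**Figure D2:**
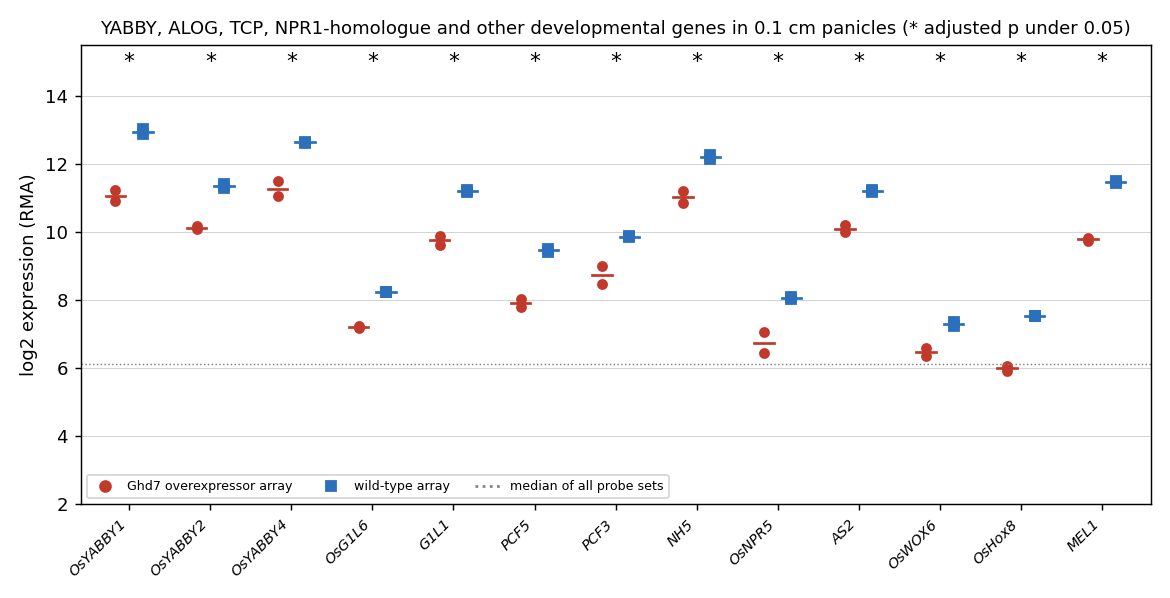
Log2 expression of the named YABBY, ALOG, TCP, NPR1-homologue, LOB, WOX, homeobox and Argonaute genes in 0.1 cm panicles, with 1 point for each array, a bar for each group mean, and overexpressor (circles) left of wild type (squares). Both overexpressor arrays lie below both wild-type arrays for all 13 genes, which were chosen because they passed, with differences of -1.87 for OsYABBY1 and -0.83 for OsWOX6.

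Several genes of meristem activity and panicle branching rose. Of 9 measured genes of this list, 4 rose and 1 fell, against 2.04% of named genes higher, and the median difference was 0.63. OsSPL14, the SBP-box factor that promotes panicle branching, stood at 13.23 and 13.28 in the overexpressor arrays, against 12.21 and 12.13 in the wild-type arrays (1.09 ± 0.12, 2.13-fold higher, adjusted p = 0.00202). FZP, the ERF factor that gives spikelet meristems their identity and stops further branching, stood at 10.38 and 9.83 in the overexpressor arrays, against 9.08 and 9.14 in the wild-type arrays (0.99 ± 0.18, adjusted p = 0.0212). The overexpressor arrays were apart for FZP, but both lay above the wild-type arrays.

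LOG, the enzyme that activates cytokinin in shoot meristems, stood at 9.72 and 9.76 in the overexpressor arrays, against 8.91 and 8.96 in the wild-type arrays (0.81 ± 0.12, adjusted p = 0.00732). A dim second probe set of LOG gave 0.10. FON1, a CLAVATA1-like receptor kinase that limits the size of the floral meristem, stood at 10.21 and 10.26 in the overexpressor arrays, against 9.63 and 9.57 in the wild-type arrays (0.63 ± 0.11, adjusted p = 0.0164). TOB1, a YABBY gene that acts from lateral organs on the spikelet meristem, was the one that fell, at 12.80 and 12.70 in the overexpressor arrays, against 13.42 and 13.48 in the wild-type arrays (-0.70 ± 0.12, adjusted p = 0.0199).

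The remaining 4 were above wild type on both overexpressor arrays without passing. LAX1, the bHLH factor of axillary meristems, was at 13.02 and 12.79 in the overexpressor arrays, against 12.43 and 12.39 in the wild-type arrays. RFL, the rice LEAFY, was at 12.95 and 12.95 in the overexpressor arrays, against 12.53 and 12.55 in the wild-type arrays, and mfs1, an ERF factor of spikelet determinacy, was at 11.80 and 12.24 in the overexpressor arrays, against 11.17 and 11.19 in the wild-type arrays. OSH1 is given above. Their differences were 0.50 ± 0.14, 0.41 ± 0.11, 0.84 ± 0.30 and 0.22 ± 0.11, in that order. OsLG1, the SBP-box gene of the ligule and panicle closure, was the other SPL gene found by name. It stood at 10.33 and 10.27 in the overexpressor arrays, against 9.68 and 9.70 in the wild-type arrays and rose by 0.61 ± 0.13 (adjusted p = 0.039).

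OsSPL14 kept its call under all 17 alternatives. Left-out arrays ended the calls of FZP without panicle overexpressor replicate 1 or either wild-type panicle array, or either overexpressor leaf array (adjusted p 0.0507 to 0.156), LOG without panicle overexpressor replicate 2 or either wild-type panicle array (adjusted p 0.0548 to 0.0852), FON1 without any 1 of the 4 panicle arrays (adjusted p 0.0523 to 0.175), TOB1 without any 1 of the 4 panicle arrays (adjusted p 0.0555 to 0.186) and OsLG1 without any 1 of the 4 panicle arrays, or either overexpressor leaf array (adjusted p 0.0638 to 0.242). On the 4 panicle arrays alone FZP (adjusted p = 0.117), FON1 (0.0567), TOB1 (0.0529) and OsLG1 (0.0579) did not pass, which left 2 of the 4 rises of the list.

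The APETALA1 group, which turns a shoot meristem into an inflorescence, did not pass the test in panicles. None of its 5 measured genes passed in either direction, although all 5 differences were positive, with a median of 0.15. Whether they differ from the meristem genes was not tested. OsMADS14 was at 13.10 and 13.11 in the overexpressor arrays, against 12.84 and 12.85 in the wild-type arrays, and OsMADS15 at 13.73 and 13.70 in the overexpressor arrays, against 13.71 and 13.67 in the wild-type arrays. OsMADS18 was at 13.28 and 13.40 in the overexpressor arrays, against 13.18 and 13.19 in the wild-type arrays, and OsMADS34, a SEPALLATA-like gene that acts with the group, at 11.80 and 11.70 in the overexpressor arrays, against 11.73 and 11.63 in the wild-type arrays. OsMADS20 lay under the array median, at 4.83 and 4.65 in the overexpressor arrays, against 4.22 and 4.61 in the wild-type arrays. The differences were 0.26 ± 0.16, 0.02 ± 0.16, 0.15 ± 0.14, 0.07 ± 0.21 and 0.32 ± 0.26, in that order. The dimmer probe sets of OsMADS14 gave 0.46 ± 0.17, 0.16 ± 0.19 and 0.58 ± 0.29, and none passed.

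**Figure D3:**
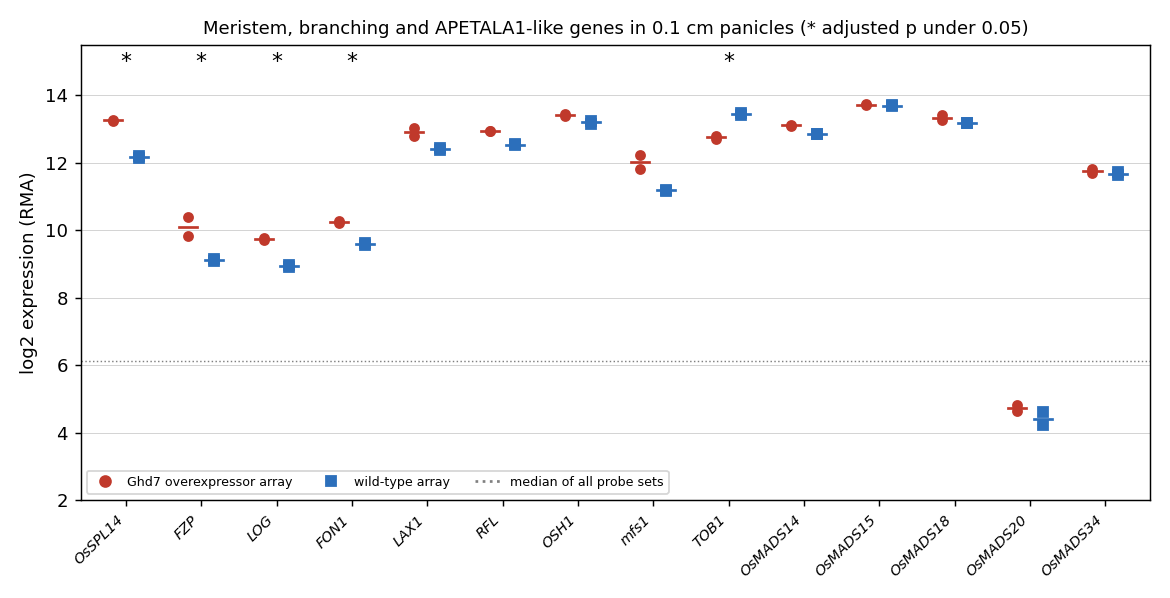
Log2 expression of 9 meristem and branching genes and the 5 genes of the APETALA1 group in 0.1 cm panicles, with 1 point for each array, a bar for each group mean, and overexpressor (circles) left of wild type (squares). OsSPL14, FZP, LOG and FON1 are higher and TOB1 lower in the overexpressor, while the APETALA1-like genes differ by 0.02 to 0.32 and none passed.

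Of 18 measured flowering-time genes, 1 rose and 1 fell in panicles, against 2.04% of named genes higher and 3.15% lower. Both are SOC1-like MADS-box genes known to act on flowering in opposite ways. OsMADS50, an activator, stood at 10.94 and 10.82 in the overexpressor arrays, against 10.31 and 10.19 in the wild-type arrays (0.63 ± 0.12, adjusted p = 0.0254). OsMADS56, reported to delay flowering in long days, stood at 9.80 and 9.54 in the overexpressor arrays, against 10.43 and 10.40 in the wild-type arrays (-0.75 ± 0.13, adjusted p = 0.0175). OsMADS50 lost its call without any 1 of the 4 panicle arrays (adjusted p 0.0817 to 0.237), and so did OsMADS56 without panicle overexpressor replicate 2 or either wild-type panicle array (adjusted p 0.108 to 0.143). With only the 4 panicle arrays in the fit, neither passed (adjusted p = 0.0745 and 0.0772).

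The SVP-like gene OsMADS55 had the largest difference of the list, 1.75 ± 0.48. It stood at 10.08 and 9.92 in the overexpressor arrays, against 8.37 and 8.13 in the wild-type arrays. It did not pass with the leaf arrays in the fit (adjusted p = 0.108) and passed on the 4 panicle arrays alone (adjusted p = 0.0211) or without either overexpressor leaf array (adjusted p = 0.0116). Its relatives OsMADS22 and OsMADS47 differed by -0.36 ± 0.12 and 0.06 ± 0.14, and neither passed. Hd3a, the florigen gene, was near the bottom of the scale in panicles of both genotypes, at 4.28 and 4.20 in the overexpressor arrays, against 4.26 and 3.94 in the wild-type arrays.

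The other genes of the list did not pass. Of the regulators of florigen, Hd1 differed by 0.12, DTH8 by -0.32, OsPRR37 by -0.39, OsGI by -0.64, Ehd3 by -0.32 and Ehd4 by -0.11. Ehd3 had another probe set that passed, at 6.72 and 5.70 in the overexpressor arrays, against 7.66 and 7.85 in the wild-type arrays (-1.55 ± 0.27, adjusted p = 0.0185), and another at -0.30 that did not, so its probe sets disagreed. The phytochromes OsPHYA, OsPHYB and OsPHYC differed by 0.22, -0.07 and -0.18. The casein kinase Hd16, the haem oxygenase SE5 and OsMFT1 differed by -0.06, -0.02 and -0.09.

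Most genes of photosynthesis, used as markers of green tissue, fell in overexpressor panicles. Of 7 measured, 5 fell and none rose, against 3.15% of named genes lower, with a median of -0.94. The summed linear signal of the 7 genes, on the log2 scale, was 11.60 and 11.23 in the overexpressor arrays, against 11.99 and 12 in the wild-type arrays. GLO1, the brightest of the 7 in panicles, weighs most in this sum, and its probe set was the dimmest of the 7 in leaves. RCABP69 lay under the array median in the overexpressor. Whether the share of green tissue bears on the other lists was not tested.

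OsrbcS, the small subunit of Rubisco, stood at 8.51 and 7.97 in the overexpressor arrays, against 9.51 and 9.66 in the wild-type arrays (-1.34 ± 0.17, adjusted p = 0.00371). Of its 3 dimmer probe sets 1 passed, at -0.64, and the others gave 0.03 and 0.23. The chlorophyll a/b-binding protein gene RCABP69 stood at 5.39 and 4.28 in the overexpressor arrays, against 6.68 and 6.56 in the wild-type arrays (-1.79 ± 0.28, adjusted p = 0.0121), and RCABP89 at 6.79 and 6.18 in the overexpressor arrays, against 7.49 and 7.37 in the wild-type arrays (-0.94 ± 0.18, adjusted p = 0.0287). GOS5, a photosystem I subunit, was at 6.65 and 6.85 in the overexpressor arrays, against 7.53 and 7.43 in the wild-type arrays (-0.73 ± 0.12), and RCA, the Rubisco activase, at 6.92 and 6.85 in the overexpressor arrays, against 7.48 and 7.44 in the wild-type arrays (-0.58 ± 0.11). The other 3 probe sets of RCA gave -0.86, -0.83 and -0.28. GLO1, a glycolate oxidase of photorespiration, was at 10.70 and 10.66 in the overexpressor arrays, against 10.70 and 10.61 in the wild-type arrays. In leaves this probe set was at 8.54 and 8.62 in the overexpressor and 8.69 and 8.49 in the wild type. Levels in panicles and leaves are not on one scale. Within leaves this probe set was the dimmest of the 7 genes, so it may be a poor marker of green tissue. Another GLO1 probe set, at 13.52 and 13.57 in overexpressor leaves, gave -0.21 in panicles and did not pass. CAB2R, another chlorophyll-binding protein gene, was at 9.45 and 7.73 in the overexpressor arrays, against 10.02 and 10.11 in the wild-type arrays and did not pass (adjusted p = 0.122).

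The overexpressor arrays were unlike each other here. Replicate 2 lay far below replicate 1 for CAB2R and RCABP69, and the same held for 2 genes of the circadian clock and its output. OsPRR73, a pseudo-response regulator, stood at 11.38 and 9.81 in the overexpressor arrays, against 11.95 and 11.93 in the wild-type arrays. OsGI, the rice GIGANTEA, stood at 13.08 and 12.46 in the overexpressor arrays, against 13.37 and 13.45 in the wild-type arrays. Without overexpressor replicate 1 the differences of CAB2R, OsPRR73 and OsGI were -2.34, -2.13 and -0.96, and all passed (adjusted p = 0.000604, 0.0016 and 0.0152). Without overexpressor replicate 2 they were -0.61, -0.56 and -0.33, and none passed (adjusted p = 0.0963, 0.211 and 0.409). The other clock genes differed by -0.17 for OsLHY, -0.25 for OsPRR1 and -0.15 for OsPRR95, and none of the 4 clock genes passed. Among the falls, the call was lost by OsrbcS without panicle wild-type replicate 2 (adjusted p 0.0542), RCABP69 without either wild-type panicle array (adjusted p 0.0932 to 0.104), RCABP89 without panicle overexpressor replicate 2 or either wild-type panicle array, or any 1 of the 4 leaf arrays (adjusted p 0.0541 to 0.202), GOS5 without panicle overexpressor replicate 1 or either wild-type panicle array (adjusted p 0.0657 to 0.135) and RCA without any 1 of the 4 panicle arrays (adjusted p 0.0617 to 0.196). On the 4 panicle arrays alone none of the 5 passed, with adjusted p between 0.0673 and 0.147.

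Markers of later or other tissues changed little, with 1 gene in the germ line and 1 in the seed list as the exceptions. MEL1, a germline Argonaute needed before meiosis, stood at 9.74 and 9.83 in the overexpressor arrays, against 11.51 and 11.44 in the wild-type arrays (-1.69 ± 0.19, 3.22-fold lower, adjusted p = 0.00191). It was the only one of 12 Argonaute genes found by name that passed. Of the meiosis genes, PAIR1 differed by -0.49 ± 0.12, PAIR2 by -0.03 ± 0.12 and OsDMC1 by 1.01 ± 0.48, and none passed. OsDMC1 had groups apart, at 7.22 and 7.1 in the overexpressor arrays, against 6.18 and 6.13 in the wild-type arrays, and passed on the 4 panicle arrays alone (adjusted p = 0.0294).

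OsEm, an abundant late-embryogenesis protein gene of seeds that abscisic acid induces, stood at 13.67 and 13.66 in the overexpressor arrays, against 12.17 and 12.26 in the wild-type arrays (1.45 ± 0.11, 2.74-fold higher, adjusted p = 0.000286). The other 5 seed genes did not pass. Both glutelin genes, GluA1 and GluA2, differed by 0.25 and -0.13, and Wx1, the starch synthase gene waxy, by 0.17. The prolamin gene RP5 and the allergen gene RA17 differed by 0.28 and 0.09, and 4 of the 6 seed genes were under the array median.

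None of 8 anther and tapetum genes passed, and their median difference was 0.04. The receptor kinase MSP1 was at 12.40 and 12.47 in the overexpressor arrays, against 12.49 and 12.47 in the wild-type arrays, among the brighter genes of the arrays, while its ligand TDL1A, GAMYB and the tapetal PTC1 were also above the array median. MSP1 differed by -0.04, TDL1A by 0.19 and GAMYB by 0.07. The tapetal regulators TDR, EAT1 and PTC1 differed by 0.12, -0.17 and 0.02. OsC6 and CYP703A3, of the pollen wall, differed by -0.04 and 0.10. The root genes Lsi1, OsIRT1 and OsNAAT1 differed by 0.14, 0.30 and -0.71, and did not pass, although OsNAAT1 did on the 4 panicle arrays alone (adjusted p = 0.0444).

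Hormone genes changed singly. None of 8 gibberellin genes passed. OsKAO, an enzyme of its synthesis, was at 9.48 and 9.19 in the overexpressor arrays, against 8.62 and 8.68 in the wild-type arrays with a difference of 0.68 ± 0.17 (adjusted p = 0.0822). The synthesis genes OsCPS1, OsKS1, OsKO2 and SD1 differed by -0.43, -0.36, 0.26 and -0.57. The receptor gene GID1, the DELLA gene SLR1 and the breakdown enzyme EUI1 differed by 0.11, -0.21 and -0.30.

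Among 9 cytokinin genes 1 fell, against 3.15% of named genes lower. OsCKX3, a cytokinin oxidase, stood at 7.14 and 7.18 in the overexpressor arrays, against 7.77 and 7.66 in the wild-type arrays (-0.55 ± 0.11, adjusted p = 0.0347). The oxidase genes OsCKX4, OsCKX5 and OsCKX1 differed by -0.77, 0.09 and -0.11. The response regulators OsRR1, OsRR2, OsRR4, OsRR6 and OsRR9 differed by -0.41, -0.23, 0.50, -0.02 and -0.49, and none passed.

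Of 4 auxin genes 1 fell, OsYUCCA1, a synthesis enzyme, at 9.03 and 8.83 in the overexpressor arrays, against 9.54 and 9.54 in the wild-type arrays (-0.61 ± 0.13, adjusted p = 0.0456). FIB, the aminotransferase of the step before it, was at 9.46 and 9.41 in the overexpressor arrays, against 10.20 and 10.16 in the wild-type arrays and did not pass (adjusted p = 0.0723), but did on the 4 panicle arrays alone (adjusted p = 0.0443). A dimmer probe set of OsYUCCA1 gave -0.23 and did not pass. OsPID and OsPIN2 differed by -0.04 and -0.25. Of 26 Aux/IAA genes, repressors of the auxin response, IAA25 rose and IAA31 fell, and the median was 0.01. The shares among all named genes were 2.04% higher and 3.15% lower. IAA25 stood at 9.01 and 9.61 in the overexpressor arrays, against 8.24 and 8.36 in the wild-type arrays (1.01 ± 0.19, adjusted p = 0.0262), and IAA31 at 8.39 and 8.24 in the overexpressor arrays, against 8.92 and 9.01 in the wild-type arrays (-0.65 ± 0.12, adjusted p = 0.0204). A dim second probe set of IAA31 gave 0.09. Removing 1 array ended the calls of OsCKX3 without any 1 of the 4 panicle arrays, or either overexpressor leaf array (adjusted p 0.0625 to 0.256), OsYUCCA1 without any 1 of the 4 panicle arrays, or any 1 of the 4 leaf arrays (adjusted p 0.0507 to 0.277), IAA25 without panicle overexpressor replicate 2 or either wild-type panicle array, or either overexpressor leaf array (adjusted p 0.0569 to 0.191) and IAA31 without panicle overexpressor replicate 2 or either wild-type panicle array (adjusted p 0.121 to 0.203). When the leaf arrays were left out, OsCKX3, OsYUCCA1, IAA25 and IAA31 did not pass (adjusted p = 0.078, 0.0873, 0.13 and 0.0717).

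Of 8 genes of abscisic acid breakdown and response, 1 rose, against 2.04% of named genes higher. RAB16B, a dehydrin that the hormone induces, stood at 6.85 and 7.84 in the overexpressor arrays, against 4.81 and 4.90 in the wild-type arrays (2.49 ± 0.27, 5.63-fold higher, adjusted p = 0.00169), from a wild-type level under the array median. The 4 RAB16 genes lie close together, with no gene between RAB16A and RAB16B or between RAB16C and RAB16D and 2 genes between RAB16B and RAB16C. RAB16C was at 9.07 and 9.36 in the overexpressor arrays, against 8.60 and 8.53 in the wild-type arrays and did not pass (adjusted p = 0.066), and RAB16D was at 6.92 and 7.20 in the overexpressor arrays, against 6.96 and 7.17 in the wild-type arrays. RAB16A was at 7.39 and 8.43 in the overexpressor arrays, against 7.30 and 7.42 in the wild-type arrays, high on overexpressor replicate 2 alone, and without replicate 1 its difference was 1.07 (adjusted p = 0.0118), against 0.03 without replicate 2 (adjusted p = 0.99). Probe sets of such similar genes may take up each other's transcripts, which was not tested. RAB16B did not pass on the 4 panicle arrays alone (adjusted p = 0.0613). The breakdown enzymes OsABA8ox1 and OsABA8ox2 differed by 0.23 and -0.67, and RAB25 and DIP1 by 0.23 and 0.36.

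The largest rise of a named gene was that of a heat-shock factor. OsHsf-05 stood at 9.22 and 9.77 in the overexpressor arrays, against 6.4 and 6.53 in the wild-type arrays (3.03 ± 0.17, 8.17-fold higher, adjusted p = 6.35e-05). Of 42 heat-shock protein and factor genes found by name, 2 rose and 1 fell, and the median was -0.03. The shares among all named genes were 2.04% higher and 3.15% lower. OsHsp16.9B, a small chaperone, stood at 8.82 and 9.37 in the overexpressor arrays, against 7.74 and 7.74 in the wild-type arrays (1.35 ± 0.19, adjusted p = 0.0066). HSP81-1, of the HSP90 kind, fell, at 11.30 and 10.76 in the overexpressor arrays, against 12.43 and 12.30 in the wild-type arrays (-1.34 ± 0.19, adjusted p = 0.00683). A second probe set of HSP81-1 gave -0.39 and did not pass. Left-out arrays ended the calls of OsHsp16.9B without either wild-type panicle array (adjusted p 0.0666 to 0.0703) and HSP81-1 without either wild-type panicle array (adjusted p 0.0573 to 0.0771), and neither passed on the 4 panicle arrays alone (adjusted p = 0.0696 and 0.0711).

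Among genes of defence, PBZ1, a pathogenesis-related protein that the compound probenazole induces, stood at 11.01 and 10.68 in the overexpressor arrays, against 8.39 and 8.42 in the wild-type arrays (2.44 ± 0.16, 5.43-fold higher, adjusted p = 0.000136). The chitinase gene OsChia4a stood at 7.79 and 7.40 in the overexpressor arrays, against 6.53 and 6.82 in the wild-type arrays (0.92 ± 0.17, adjusted p = 0.0246). These were 2 of 8 chitinase and PR genes, against 2.04% of named genes higher. Of 8 germin-like genes, OsGER4 rose at 11.05 and 11.32 in the overexpressor arrays, against 10.40 and 10.24 in the wild-type arrays (0.87 ± 0.15), and so did OsGER7, from under the array median, at 6.21 and 6.38 in the overexpressor arrays, against 5.07 and 5.20 in the wild-type arrays (1.16 ± 0.23). Removing 1 array ended the calls of OsChia4a without panicle overexpressor replicate 1 or either wild-type panicle array (adjusted p 0.0875 to 0.202), OsGER4 without panicle overexpressor replicate 2 or either wild-type panicle array (adjusted p 0.0848 to 0.172) and OsGER7 without any 1 of the 4 panicle arrays, or either overexpressor leaf array (adjusted p 0.0608 to 0.21). On the 4 panicle arrays alone OsChia4a and OsGER4 did not pass (adjusted p = 0.109 and 0.0729).

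Metallothioneins, small proteins that bind metals, rose in 4 of 7 genes, with a median of 0.73. The share of all named genes higher was 2.04%. OsMT-1 stood at 9.14 and 8.85 in the overexpressor arrays, against 7.74 and 7.91 in the wild-type arrays (1.17 ± 0.16, adjusted p = 0.00501). OsMT-I-4c stood at 8.06 and 7.65 in the overexpressor arrays, against 6.50 and 6.78 in the wild-type arrays (1.21 ± 0.24), and OsMT-I-4a at 6.62 and 6.95 in the overexpressor arrays, against 5.6 and 5.64 in the wild-type arrays (1.16 ± 0.19). OsMT-2 stood at 11.75 and 11.91 in the overexpressor arrays, against 11.07 and 11.14 in the wild-type arrays (0.73 ± 0.12), and 2 of its other 3 probe sets rose too, by 1.12 and 0.80. OsNAS3, a nicotianamine synthase of metal transport, stood at 8.51 and 8.26 in the overexpressor arrays, against 6.58 and 6.79 in the wild-type arrays (1.70 ± 0.20, 3.24-fold higher, adjusted p = 0.00262), as the only one of 15 such genes to pass. Left-out arrays ended the calls of OsMT-1 without panicle wild-type replicate 1 (adjusted p 0.0666), OsMT-2 without panicle overexpressor replicate 2 or either wild-type panicle array (adjusted p 0.104 to 0.142), OsMT-I-4a without panicle overexpressor replicate 2 or either wild-type panicle array (adjusted p 0.102 to 0.109) and OsMT-I-4c without any 1 of the 4 panicle arrays, or either wild-type leaf array (adjusted p 0.0604 to 0.235). Fitted to the 4 panicle arrays alone, OsMT-2 and OsMT-I-4c did not pass (adjusted p = 0.0587 and 0.0717).

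Other rises were of single genes of the cell wall, transport and stress signalling, and most members of their families did not pass. OsEXPB11, a cell-wall expansin, stood at 9.43 and 9.13 in the overexpressor arrays, against 7.59 and 7.60 in the wild-type arrays (1.69 ± 0.17, 3.23-fold higher, adjusted p = 0.00128), while OsEXP6 fell, at 10.62 and 10.32 in the overexpressor arrays, against 11.35 and 11.33 in the wild-type arrays (-0.87 ± 0.13). The other 23 of 25 expansin genes did not pass, against shares of 2.04% higher and 3.15% lower among named genes. The call was lost by OsEXP6 without panicle overexpressor replicate 2 or either wild-type panicle array (adjusted p 0.057 to 0.0896), and also on the 4 panicle arrays alone (adjusted p = 0.0678). OsSWEET15, a sugar exporter, stood at 10.32 and 9.97 in the overexpressor arrays, against 8.80 and 8.85 in the wild-type arrays (1.32 ± 0.14, adjusted p = 0.00147). ML6, a Mei2-like RNA-binding protein gene, stood at 9.81 and 10.03 in the overexpressor arrays, against 8.10 and 8.15 in the wild-type arrays (1.80 ± 0.14, 3.47-fold higher, adjusted p = 0.000324).

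The stress-related factors OsNAC5 and OsNAC6 stood at 10.57 and 10.43 in the overexpressor arrays, against 9.56 and 9.65 in the wild-type arrays, and at 9.33 and 9.28 in the overexpressor arrays, against 8.42 and 8.61 in the wild-type arrays, and rose by 0.89 ± 0.12 and 0.79 ± 0.13. The dimmer probe sets did not pass, at 0.77 and 0.52 for OsNAC5 and at 0.28 and -0.06 for OsNAC6. The other 6 NAC genes found by name did not pass. Of 55 protein phosphatase 2C genes, a family that includes brakes on abscisic acid signalling, 3 rose and none fell. The share of named genes higher was 2.04%. OsPP2C08 stood at 12.56 and 12.48 in the overexpressor arrays, against 11.57 and 11.48 in the wild-type arrays (1.0 ± 0.13, adjusted p = 0.00477), and OsPP2C59 and OsPP2C02 rose by 0.71 ± 0.15 and 0.60 ± 0.13. Of 25 aquaporin genes only 1 passed. This gene, OsPIP2;2, stood at 6.59 and 6.45 in the overexpressor arrays, against 5.74 and 5.46 in the wild-type arrays (0.92 ± 0.15). The mitochondrial alternative oxidase OsAOX1A stood at 5.42 and 5.77 in the overexpressor arrays, against 4.07 and 4.35 in the wild-type arrays (1.38 ± 0.22). In both the wild type was under the array median, and a dimmer probe set of OsPIP2;2 gave 0.13. Removing 1 array ended the calls of OsNAC5 without panicle wild-type replicate 1 (adjusted p 0.0637), OsNAC6 without any 1 of the 4 panicle arrays (adjusted p 0.0711 to 0.154), OsPP2C08 without panicle wild-type replicate 2 (adjusted p 0.0692) and OsPP2C59 without any 1 of the 4 panicle arrays, or either overexpressor leaf array (adjusted p 0.0758 to 0.233). The same held for OsPP2C02 without panicle overexpressor replicate 2 or either wild-type panicle array, or any 1 of the 4 leaf arrays (adjusted p 0.0572 to 0.256), OsPIP2;2 without either overexpressor panicle array or panicle wild-type replicate 2 (adjusted p 0.0581 to 0.14) and OsAOX1A without panicle overexpressor replicate 2 or either wild-type panicle array (adjusted p 0.0669 to 0.12). On the 4 panicle arrays alone OsNAC6, OsPP2C02, OsPIP2;2 and OsAOX1A did not pass (adjusted p = 0.0547, 0.126, 0.0655 and 0.0508).

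Lipid transfer proteins went both ways. LTP110-A rose, at 11.62 and 11.83 in the overexpressor arrays, against 10.70 and 10.59 in the wild-type arrays (1.08 ± 0.13, adjusted p = 0.00251), and OsLTPL1 fell, at 9.21 and 9.27 in the overexpressor arrays, against 10.31 and 10.31 in the wild-type arrays (-1.07 ± 0.18, adjusted p = 0.016). LTP2-B rose by 1.06 ± 0.17 on its brightest probe set, while its others gave 0.17 and -0.47 and did not pass, so its probe sets disagreed. The calls were lost by LTP2-B without panicle overexpressor replicate 2 or panicle wild-type replicate 2 (adjusted p 0.0943 to 0.129) and OsLTPL1 without any 1 of the 4 panicle arrays (adjusted p 0.0773 to 0.135), and by LTP2-B on the 4 panicle arrays alone (adjusted p = 0.0691).

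**Figure D4:**
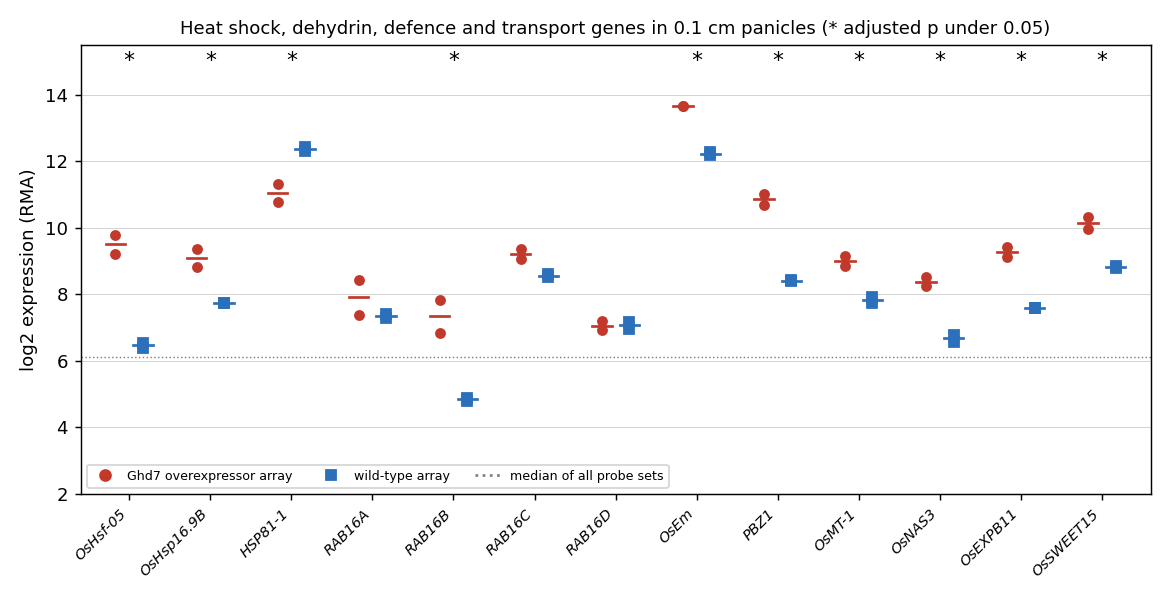
Log2 expression of heat-shock, dehydrin, seed, defence, metal, cell-wall and sugar-transport genes in 0.1 cm panicles, with 1 point for each array, a bar for each group mean, and overexpressor (circles) left of wild type (squares). OsHsf-05 (3.03), RAB16B (2.49) and PBZ1 (2.44) lie farthest above the wild type, HSP81-1 (-1.34) lies below it, and RAB16A, RAB16C and RAB16D did not pass.

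Some genes that deal with oxygen, and 1 nitrate reductase gene, were among the falls. Of 13 ascorbate peroxidase and glutathione transferase genes, 3 fell and none rose, against 3.15% of named genes lower. The other 10 did not pass, and the median was -0.03. OsAPx02, a cytosolic ascorbate peroxidase, stood at 11.46 and 10.65 in the overexpressor arrays, against 12.40 and 12.36 in the wild-type arrays (-1.33 ± 0.23, adjusted p = 0.018). Another probe set of it gave -1.47 and passed, and 2 dimmer ones gave -0.10 and -0.09. GST1 stood at 8.60 and 8.48 in the overexpressor arrays, against 9.30 and 9.34 in the wild-type arrays (-0.78 ± 0.11), and GST-I, under the array median in both genotypes, at 4.88 and 4.6 in the overexpressor arrays, against 6.12 and 5.94 in the wild-type arrays (-1.29 ± 0.21). NIA1, a nitrate reductase, stood at 6.39 and 6.69 in the overexpressor arrays, against 8.10 and 7.93 in the wild-type arrays (-1.48 ± 0.13, 2.78-fold lower, adjusted p = 0.000753), with a dim second probe set at 0.05. The potassium transporter OsHAK1 stood at 5.79 and 5.26 in the overexpressor arrays, against 7.04 and 6.95 in the wild-type arrays (-1.46 ± 0.24, adjusted p = 0.0138), and cob, the mitochondrial cytochrome b gene, at 8.74 and 8.97 in the overexpressor arrays, against 10.28 and 10.44 in the wild-type arrays (-1.51 ± 0.18, adjusted p = 0.00315). Left-out arrays ended the calls of OsAPx02 without either wild-type panicle array (adjusted p 0.13 to 0.135), GST1 without panicle overexpressor replicate 2 or either wild-type panicle array (adjusted p 0.0515 to 0.0906), GST-I without panicle overexpressor replicate 2 or either wild-type panicle array (adjusted p 0.0896 to 0.123) and OsHAK1 without panicle overexpressor replicate 2 or either wild-type panicle array (adjusted p 0.105 to 0.117). With only the 4 panicle arrays in the fit, OsAPx02 and OsHAK1 did not pass (adjusted p = 0.125 and 0.0605).

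Genes of growth and division hardly passed the test. None of 38 cyclin and CDK genes and none of 26 DNA replication genes passed, with medians of -0.11 and -0.12. Of 34 kinesin genes, motor proteins of the spindle and cell plate, 29 had a negative difference and 1 fell, with a median of -0.27. The share of all named genes lower was 3.15%. The falling gene was KIN14F, at 8.66 and 8.66 in the overexpressor arrays, against 9.16 and 9.18 in the wild-type arrays (-0.51 ± 0.11, adjusted p = 0.038). Its call was lost on the 4 panicle arrays alone (adjusted p = 0.0742) and without any 1 of the panicle arrays or either overexpressor leaf array (adjusted p 0.0642 to 0.272). None of 22 ribosomal protein genes passed, and their differences lay between -0.10 and 0.14.

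OsHsf-05, PBZ1, OsEXPB11, OsNAS3, OsSWEET15, ML6, OsEm, LTP110-A, MEL1, NIA1 and cob kept their calls under all 17 alternatives. Of all 74 named genes that passed, 23 did so.

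Few probe sets passed in both panicles and leaves of the same line. Of the 600 probe sets higher in overexpressor panicles, 33 (5.5%) were also higher in overexpressor leaves, which is 4.22% of the 782 higher there. Of the 1052 lower probe sets, 21 (2.0%) were lower in leaves, which is 1.2% of the 1747 lower there. In opposite directions, 31 of the panicle rises (5.17%) fell in leaves, and 25 of the panicle falls (2.38%) rose there. In leaves, 1.37% of all probe sets were higher and 3.05% lower, 4.42% together.

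The 2 tissues share no arrays, and the effects were compared directly in the fit. The difference between them passed for 2195 probe sets (3.84%). The florigen gene Hd3a, at 4.18 and 3.50 in overexpressor leaves and 10.60 and 10.58 in wild-type leaves, differed by -6.75 ± 0.21 there. Its panicle levels of 3.94 to 4.28, under the array median in both genotypes, left little room for a fall, so its panicle difference of 0.14 ± 0.21 gives no comparison between the tissues. OsMADS14 differed by -7.25 ± 0.16 in leaves, OsMADS18 by -2.02 ± 0.14 and OsMADS34 by -1.25 ± 0.21, and all 3 panicle effects differed from these (adjusted p = 6.08e-06, 0.000929 and 0.0441).

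Several genes that fell in panicles were dim in leaves of both genotypes. OsMADS7, OsMADS8, OsMADS58, OsMADS3 and DL were under the array median on all 4 leaf arrays, at 3.13 and 3.40 in overexpressor leaves and 3.52 and 3.00 in wild-type leaves for OsMADS7 and at 1.96 and 2.10 in overexpressor leaves and 2.74 and 2.42 in wild-type leaves for OsMADS58. A fall could hardly appear at such levels, and their leaf effects are not set against the panicle falls. The B-class genes OsMADS4 and OsMADS16 were above the leaf array median. OsMADS4 was at 6.13 and 6.11 in overexpressor leaves and 5.77 and 6.07 in wild-type leaves, and OsMADS16 at 6.19 and 5.55 in overexpressor leaves and 6.43 and 6.14 in wild-type leaves. Their panicle effects differed from the leaf effects of 0.20 ± 0.20 and -0.41 ± 0.20 (adjusted p of the difference = 0.00492 and 0.0201). OsMADS1 differed by -6.26 ± 0.28 in leaves and -0.96 ± 0.28 in panicles, and these effects differed from each other (adjusted p = 0.000558). Few named genes passed in both tissues. OsMADS50 rose in both, by 0.63 ± 0.12 in panicles and 0.50 ± 0.12 in leaves, OsChia4a rose more in leaves (2.63 ± 0.17), and OsHAK1 fell in both (-1.14 ± 0.24 in leaves). GST1 and IAA31 fell in panicles and rose in leaves (0.83 ± 0.11 and 0.66 ± 0.12), and OsPP2C59 rose in panicles and fell in leaves (-0.64 ± 0.15).

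**Figure D5:**
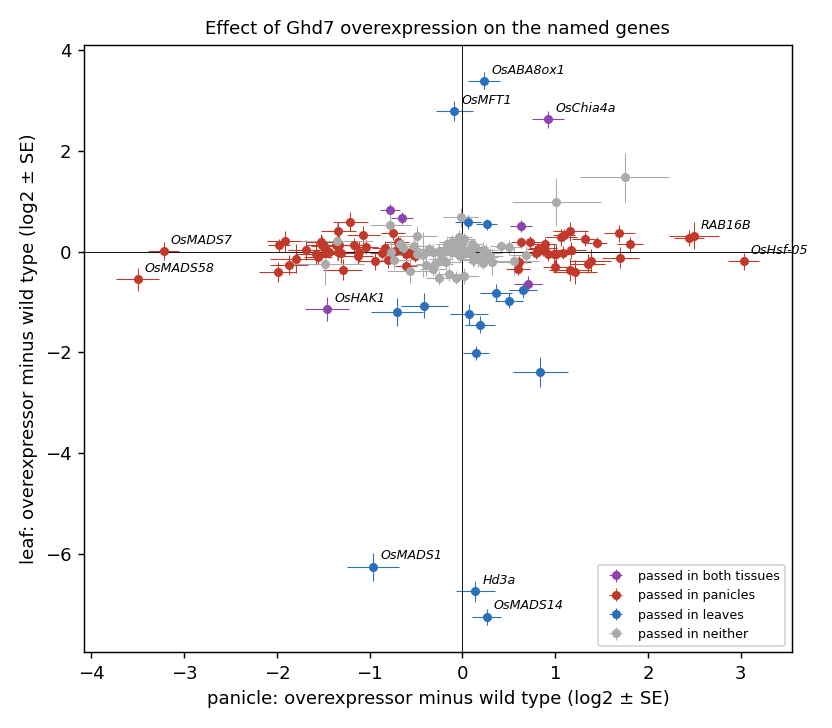
Overexpressor minus wild-type difference of the 155 named genes in panicles (horizontal) and in leaves (vertical), on the log2 scale with standard errors, coloured by the tissue in which a gene passed. Most genes that passed in panicles lie near 0 in leaves, and Hd3a, OsMADS14 and OsMADS1 lie far below 0 in leaves with panicle differences of 0.14, 0.26 and -0.96.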

How the data were processed

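The authors deposited log2 expression values, which come from Affymetrix rice arrays by RMA (version not stated) per the submitters' processing notes. RMA removes background, equalises array distributions by quantiles and summarises the probes of a probe set. Array medians were 6.13 to 6.15 in panicles and 4.49 to 4.53 in leaves, so the tissues do not share one distribution, and only differences within a tissue were compared. The number of arrays limits the precision.

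Of 57381 probe sets, 123 AFFX and 64 RPTR ones were left out. The platform annotation gave 1 gene for 22436 of the rest, several for 95 and none for 34663. Names came from a RefSeq gene table, which gave 2447 of 17905 genes a name. A gene's value is that of its probe set with the highest mean over the 4 panicle arrays.

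One mean for each of 4 groups was fitted to 8 arrays with limma 3.58.1 in R 4.3.3, with eBayes and 4 residual degrees of freedom, and two-sided p-values received a Benjamini-Hochberg adjustment over 57194 probe sets. The fit was tested on simulated data. Of 172 entries in 14 gene lists, 107 were measured, and 30 families were taken by name pattern. Members and lists were chosen with earlier results of these data known. Named are the measured genes of the floral organ, APETALA1, flowering-time and meristem lists, all measured genes of lists with up to 12, the 15 largest rises and falls of named genes with groups apart, up to 4 genes of other families, and 2 rises and 2 falls without a name. LOC4340325, OsYABBY6 and OsYABBY7 are outside this rule. Same-numbered arrays did not deviate together (r = 0.057 in panicles). Plots used matplotlib 3.10.9 and pandas 2.3.3 in Python 3.11.15. Alternatives were other fits, normalizations, filters and the removal of each array.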

Additional observations from a re-analysis of the deposited data

Results flagged for a closer look

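For the genes below the effect of overexpression differed between panicles and leaves, by a test of the difference itself (limma, adjusted p under 0.05 over all probe sets). Each value is the panicle effect minus the leaf effect on the log2 scale. Both tissues carry the same line label, and age, tissue and normalization differ together between them. A gene under the median of every array of a tissue had little room for a fall there. Where such a gene fell in the other tissue only, the value is no evidence that the tissues respond differently. Such a level does not bar a rise, although a fold change may be too small there. Some genes passed from such levels: in leaves IAA31 rose (0.66 ± 0.12) and OsMADS34 fell (-1.25 ± 0.21).

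Where leaf levels were lower in the overexpressor and panicle levels did not pass, the value was large and positive. It was 6.89 for Hd3a, which was under the median on all 4 panicle arrays and could hardly fall there. It was 7.51 for OsMADS14, 5.30 for OsMADS1, 3.24 for mfs1, 2.17 for OsMADS18 and 1.31 for OsMADS34. TDL1A (1.64), OsRR4 (1.48), RAB16C (1.42) and DIP1 (1.17) likewise did not pass in panicles and were lower in overexpressor leaves. Where leaf levels rose and panicle levels did not pass, it was -3.16 for OsABA8ox1 and -2.88 for OsMFT1. Both genes were under the median on all 4 panicle arrays.

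Of 29 genes that fell in panicles and did not pass in leaves, 15 were under the median on all 4 leaf arrays, at 1.96 to 4.02. Their values were -3.22 for OsMADS7, -2.95 for OsMADS58, -2.10 for OsMADS8, -1.58 for DL and -1.54 for OsMADS3 among floral organ genes. They were -1.49 for OsYABBY4, -0.89 for TOB1, -1.44 for G1L1, -1.13 for OsG1L6, -1.46 for PCF5 and -1.05 for PCF3, and -1.29 for NH5, -0.90 for OsWOX6, -1.71 for OsHox8 and -1.72 for MEL1. Genes with leaf levels that were not all under the median had -2.11 for OsMADS4, -1.58 for OsMADS16, -1.11 for OsMADS56, -1.80 for OsYABBY2, -1.59 for OsYABBY1 and -1.29 for OsNPR5. Of the rising meristem and SPL genes, OsSPL14 (0.76), LOG (0.77) and OsLG1 (0.82) differed from their leaf effects. OsSPL14 was under the median on all 4 leaf arrays.

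Among stress, defence and metal genes the value was 3.22 for OsHsf-05, 1.59 for OsHsp16.9B, -1.74 for HSP81-1, 2.18 for RAB16B, 1.29 for OsEm and 2.17 for PBZ1. It was -1.71 for OsChia4a, 1.53 for OsGER7, 1.14 for OsMT-1, 1.63 for OsMT-I-4c, 1.81 for OsNAS3 and 0.75 for OsNAC5. The phosphatases OsPP2C02, OsPP2C08 and OsPP2C59 had 0.94, 1.30 and 1.35. In this group OsHsp16.9B, RAB16B, OsEm and OsMT-I-4c were under the median on all 4 leaf arrays.

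Of the other genes, the value was positive for OsAOX1A (1.56), OsEXPB11 (1.33), OsSWEET15 (1.07), OsPIP2;2 (0.96), LTP110-A (1.10) and ML6 (1.66). It was negative for GST1 (-1.61), OsAPx02 (-1.45), NIA1 (-1.44), cob (-1.63), OsEXP6 (-0.85), OsLTPL1 (-1.40), IAA31 (-1.31), OsrbcS (-1.34) and GOS5 (-0.73). OsEXPB11, OsSWEET15, LTP110-A and IAA31 were under the median on all 4 leaf arrays, and OsAOX1A on all 4 panicle arrays.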

How the results depend on the processing

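The main counts were 600 higher and 1052 lower probe sets. Without 1 array they ranged over 123 to 629 and 297 to 1016, and the removals of wild-type panicle replicate 1 (130 and 338), wild-type panicle replicate 2 (123 and 297) and overexpressor panicle replicate 2 (226 and 544) moved both by over 1.5 times. On the 4 panicle arrays alone, with 2 residual degrees of freedom, there were 248 and 444, and 38 of the 74 named genes that passed no longer did (adjusted p 0.0508 to 0.147). With the replicate number as a block there were 365 and 732, but the numbers did not pair the arrays (r = 0.057). Array weights gave 1097 and 1710, a test against a 1.2-fold change gave 214 and 430, and 1 probe set per gene, with 17905 tested, gave 334 and 398. The lower floral organ genes numbered 6 to 11 of 14 under all alternatives. The 4 higher meristem genes were 2 on the 4 panicle arrays, 1 against a 1.2-fold change and 1 to 4 without 1 array. No called named gene of 74 turned its direction under the 17 alternatives, and 23 kept the call under all. The difference between tissues was run in 1 setting.

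Directions turned only for genes that did not pass, with ranges without 1 array of -0.02 to 0.07 for GLO1, -0.03 to 0.28 for Hd1, -0.02 to 0.3 for Hd3a, -0.02 to 0.3 for Lsi1, -0.21 to 0.13 for OsC6, -0.07 to 0.19 for OsMADS47, -0.28 to 0.1 for OsMFT1 and -0.33 to 0.24 for OsPID. The ranges were -0.08 to 0.03 for OsRR6, -0.09 to 0.04 for PAIR2, -0.06 to 0.11 for PTC1, -0.13 to 0.3 for RA17, -0.15 to 0.13 for RAB16D, -0.11 to 0.07 for SE5 and -0.11 to 0.44 for Wx1. Quantile normalization again within each tissue gave 0.00791 for RAB16D and 0.00067 for SE5. The causes were not tested.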
